A study of Mus musculus with 6 samples.

Results

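The clustered protocadherins are cell-surface proteins of the cadherin superfamily, encoded in 3 neighbouring gene arrays called alpha, beta and gamma. All rows of the deposited table whose symbol names a member of these arrays were taken, which gave 59 of 23337 gene symbols: 15 alpha, 22 beta and 22 gamma. The cells were dopaminergic neurons from the SNc (substantia nigra pars compacta), a midbrain nucleus that projects to the dorsal striatum, sorted from adult C57BL/6 mice for sequencing of their mRNA. Mice of both groups carried the reporter RC-Frepe together with Th-2A-Flpo and Sox6-FSF-Cre. Flp recombinase made from the Th locus (tyrosine hydroxylase) opens the reporter to mCherry and permits Cre from the Sox6 locus, which switches the reporter to GFP. GFP-positive neurons are called Sox6+ and mCherry-positive neurons Sox6-. Recombination is permanent, so GFP marks cells with Cre activity at some time and not only at the time of sorting. There were 3 libraries per group, and the numbers 103, 825 and 1211 occur once in each. Nothing in the labels gives the number of mice per library or says that libraries came from separate animals, so a p-value here reflects only how much these libraries vary, which may be technical. The question is whether the 2 dopaminergic populations differ in the protocadherin genes they express.

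Each alpha and gamma variable exon has its own promoter and encodes the extracellular and transmembrane parts of 1 isoform, which is spliced to constant exons shared within the cluster. Beta genes each have a single coding exon and no shared constant exon. Neurons choose most of these promoters stochastically, through CTCF and cohesin, while the C-type members (Pcdhac1, Pcdhac2, Pcdhgc3, Pcdhgc4 and Pcdhgc5) are chosen more uniformly. Isoforms on touching membranes match homophilically, and this recognition lets neurites of 1 neuron avoid each other. In GRCm38 (GENCODE M21) the arrays lie on the plus strand of chromosome 18, alpha from 36930184 to 37187661, beta from 37264938 to 37524479 and gamma from 37661793 to 37841873. Exons unique to 1 member had a median length of 2479.5 bases in alpha, 3714 in beta and 2607.5 in gamma. No sequences of these genes are printed.

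The 6 libraries held 10397924 to 12952768 reads in genes. Sox6 lay at 841, 461 and 389 normalized reads in Sox6+ libraries 103, 825 and 1211, and at 104, 18.1 and 36.2 in the Sox6- libraries, so the groups did not overlap, although its log2 difference of 3.66 missed the threshold (limma adjusted p = 0.0528). For the 10 dopaminergic markers the sum was 102840, 200037 and 173297 (Sox6+ 103, 825, 1211) against 42318, 128692 and 37773 (Sox6-, same order). These sums overlapped, since Sox6- library 825 exceeded Sox6+ library 103. All 9 dopaminergic markers tested had a log2 difference above 0, meaning higher in Sox6+ neurons, beside 48.1% of all tested genes. The median was 1.41, and the smallest were 0.13 (Foxa2) and 0.21 (Nr4a2). With limma 0 of the 9 passed, beside 0.304% of all tested genes, and 6 had an unadjusted p under 0.05, beside 11.4%. Whether dopaminergic content affected the protocadherin comparison was not tested. Sox6+ library 825 stood apart: 10 macrophage and microglia markers summed to 28315 there against 11.1 to 35.5 in the other 5 libraries. Of the 10, 3 were at 0 in it and 6 to 8 elsewhere. Lyz2 alone made up 26494 of this sum, and Tyrobp, Cd68, Ptprc and Csf1r lay at 1035, 387, 336 and 58.1. The rest of the list was not raised there, with C1qa, C1qb and Aif1 at 0 and C1qc and Cx3cr1 at 2.28. The 6 oligodendrocyte markers summed to 2008 in it against 264 to 389 elsewhere. The 7 GABAergic markers summed to 9512, 765 and 3308 in Sox6+ libraries 103, 825 and 1211 and to 18207, 5290 and 13929 in Sox6- libraries. Of the 7, Sst passed the limma threshold, at 0 to 1.97 in Sox6+ and 3164 to 5814 in Sox6- libraries. Pvalb was higher in Sox6+ libraries 103 and 1211 (401 and 869) than in any Sox6- library (60.4 to 128) and at 0 in Sox6+ library 825. The 3 glutamatergic markers summed to 163 to 999 in Sox6+ and 2263 to 4815 in Sox6- libraries. Slc17a6 made up most of each sum, at 163 to 873 in Sox6+ and 2237 to 4815 in Sox6- libraries. Slc17a7 lay at 126 in Sox6+ and 104 in Sox6- library 103 and at 0 in the others. Slc17a8 reached at most 26.2. Whether the macrophage, oligodendrocyte, GABAergic and glutamatergic transcripts came from other cells or from the dopaminergic neurons was not tested. Their part in the protocadherin values was not tested either. Astrocyte markers summed to 27.3 to 81.5, serotonergic markers to 0 to 77.9 and endothelial markers to 0 to 26.0, and both oligodendrocyte precursor markers were at 0 in all 6 libraries.

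Clustered protocadherins had few counted reads, 1136 to 2134 per library over all 59 members. No member differed between the 2 populations past the threshold. Of the 59 members, 34 had a mean of at least 10 normalized reads over the 6 libraries and were tested: 8 alpha, 18 beta and 8 gamma. With limma 0 of 34 passed an adjusted p of 0.05, where 0.304% of all tested genes did. Without adjustment 2 members, Pcdhb16 and Pcdhga5, had a p under 0.05 (5.88% of members), against 11.4% of all tested genes. On the recovered reads edgeR and DESeq2 also called 0 members, against 0.0455% and 2.98% of all genes, and each gave 1 member (2.94%) an unadjusted p under 0.05, against 10.0% and 11.9% of all genes. The authors' deposited table held an adjusted p for 49 members and none was under 0.05, against 2.83% of its genes. For 5 of the 34 members the 3 Sox6+ libraries did not overlap the 3 Sox6- libraries, which is 14.7% beside 17.0% of all tested genes. Sox6+ was higher in 3 of them (Pcdhb16, Pcdhb20 and Pcdhga7; background 7.86%) and Sox6- in 2 (Pcdhga5 and Pcdhgb7; background 9.19%). When libraries of 1 number formed a block, limma called 0 members, against 2.03% of all tested genes, and 3 (8.82%) had an unadjusted p under 0.05, against 17.2%. The exact permutation test over 3 against 3 libraries cannot give a p under 0.1.

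The absence of calls does not show equal levels. The 95% interval of the log2 difference had a half-width from 0.877 to 4.45 among the 34 members. It lay within 2 log2 units of 0 on both sides for 5 members and within 1 unit for 0. The median standard error was 1.05 in members and 0.343 over all tested genes. Log2 differences here are Sox6+ minus Sox6- of log2(normalized reads + 1). For genes near 0 the added 1 shrinks a difference, while a single library at 0 can enlarge one.

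**Figure D1:**
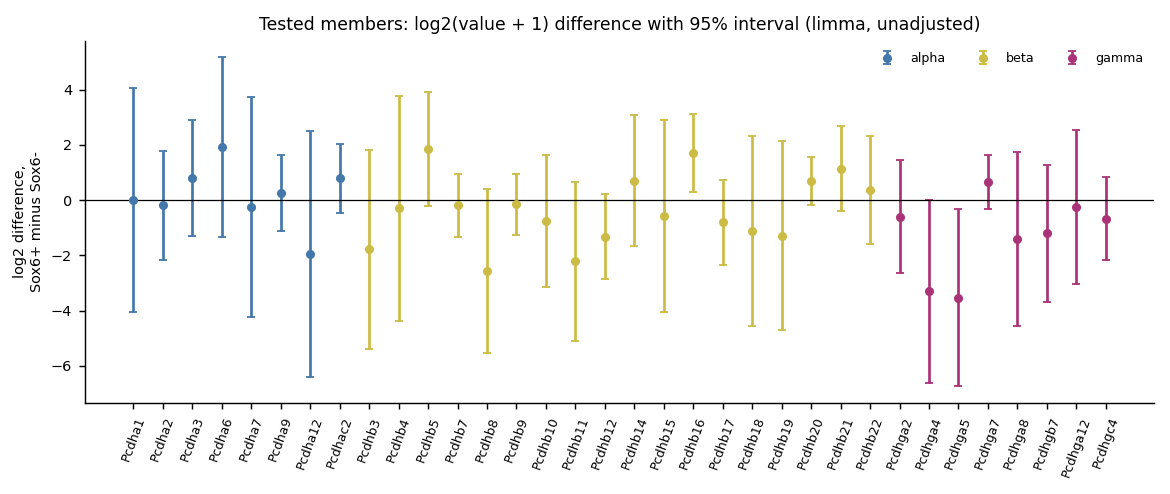
Log2 difference (Sox6+ minus Sox6-, vertical axis) of the 34 tested members, coloured by cluster and ordered by position within it; points are limma estimates and whiskers unadjusted 95% intervals. The intervals of Pcdhb16 and Pcdhga5 exclude 0, and all others include it.

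Summed over members, the Sox6+ and Sox6- libraries overlapped in each cluster. The alpha sum was 229, 247 and 237 in Sox6+ libraries 103, 825 and 1211 and 167, 272 and 248 in the Sox6- libraries. Its mean was 238 ± 9.15 against 229 ± 55.0 (SD, n = 3 each). The beta cluster held most of the counted reads, with 1325, 688 and 1268 in Sox6+ and 1527, 1018 and 971 in Sox6- libraries. Its mean was 1094 ± 353 against 1172 ± 308. How reads in the shared constant exons of alpha and gamma were counted was not given, so sums of different clusters may not be comparable. In the gamma cluster the sums were 356, 359 and 229 against 353, 489 and 340.4, or 315 ± 74.0 against 394 ± 82.6. The log2 ratios of the means were 0.05 for alpha, -0.10 for beta and -0.33 for gamma. Without Sox6+ library 825 they were 0.02, 0.15 and -0.43. The gamma ratio was -0.14 without Sox6+ library 1211 and also -0.14 without Sox6- library 825. Pcdhga7, which was higher in Sox6+ libraries, offset the other gamma members, and without it the gamma ratio was -0.83. The alpha ratio was -0.14 without Pcdhac2 and -0.13 without Sox6- library 103, and the beta ratio was 0.14 without Sox6- library 103. In sorted pools, fewer cells with a transcript and less transcript per cell cannot be told apart.

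**Figure D2:**
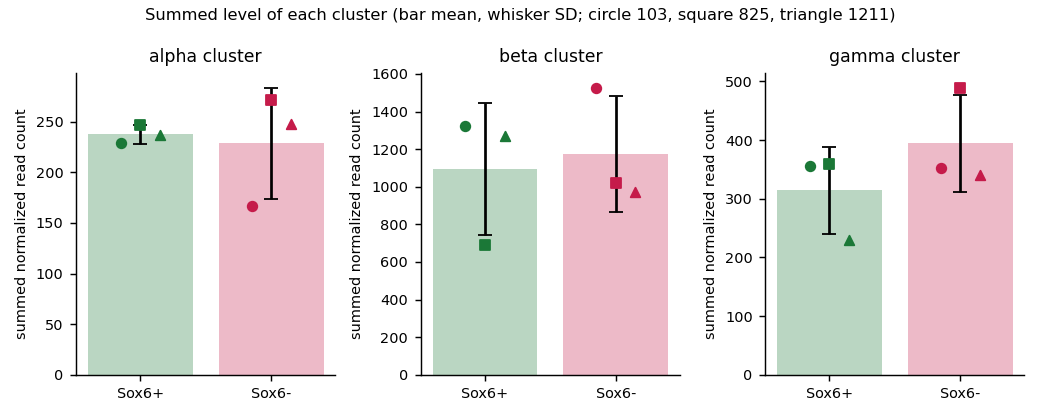
Summed normalized read count per library (vertical axis) in each cluster for Sox6+ and Sox6- neurons; bars are means, whiskers SD over 3 libraries, symbols single libraries. Alpha sums lie at 229 to 247 in Sox6+ libraries, and the lowest beta sum, 688, is that of Sox6+ library 825.

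Member by member, the median log2 difference was 0.14 over the 8 alpha members tested, -0.44 over 18 beta and -0.93 over 8 gamma members, against -0.02 over all tested genes. In alpha 5 of 8 differences were above 0, in beta 6 of 18 and in gamma 1 of 8, or 12 of 34 together (35.3%, beside 48.1% of all tested genes). None of these medians has a test. Leaving out Sox6+ library 825 moved them to 0.79 in alpha, 0.32 in beta and -0.88 in gamma, and changed the sign of 10 of the 34 differences. The beta median was -1.06 without Sox6+ library 103 and -0.05 without Sox6- library 103. Only 2 gamma members had a mean of at least 50, Pcdhga7 (0.65) and Pcdhgc4 (-0.67), and their median was -0.01.

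Among the C-type members, Pcdhac2 and Pcdhgc4 carried nearly all reads. Pcdhac2, which serotonergic neurons need for the tiling of their axons, lay at 43.4, 86.5 and 53.6 in Sox6+ libraries 103, 825 and 1211 and at 24.9, 30.2 and 50.1 in Sox6- libraries. Its means were 61.2 ± 22.5 and 35.1 ± 13.3 (SD, n = 3 each). The groups overlapped, and the log2 difference of 0.79 had an interval from -0.45 to 2.02 (limma adjusted p = 0.618). Pcdhgc4, the gamma isoform that interneurons need for survival, lay at 103, 61.5 and 20.3 in Sox6+ and at 43.2, 131 and 94.6 in Sox6- libraries. Both groups spanned much of the same range, with means of 61.5 ± 41.1 and 89.6 ± 44.1 (log2 difference -0.67, limma adjusted p = 0.735). Leaving out number 103 or 1211 of the Sox6+ libraries moved the difference to -1.17 or -0.03, and leaving out 103 or 825 of the Sox6- libraries moved it to -1.12 or -0.33. Per kilobase of unique exon, the mean over 6 libraries was 15.9 for Pcdhac2 and 26.0 for Pcdhgc4.

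The other C-type members were barely detected and were not tested. Pcdhac1 had 8 reads in the Sox6+ libraries together and 21 in the Sox6- libraries, 16.1 normalized reads of it in Sox6- library 825. Pcdhgc3, an isoform that binds Axin1 and shapes cortical dendrites, had 7 and 16 reads, and Pcdhgc5 had 5 and 13. Per kilobase these 3 lay at 1.85, 1.44 and 1.11. All 5 C-type members together summed to 129 ± 40.8 normalized reads in Sox6+ and 141 ± 61.2 in Sox6- neurons.

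In the stochastic part of the alpha cluster Pcdha9, Pcdha3 and Pcdha2 had the highest levels, at 18.4, 10.3 and 8.45 normalized reads per kilobase of unique exon. Pcdha9 lay at 31.6, 69.5 and 45.3 in Sox6+ libraries 103, 825 and 1211 and at 20.1, 46.3 and 61.2 in Sox6- libraries, with means of 48.8 ± 19.2 and 42.6 ± 20.8. Library 103 was lowest in both groups. Pcdha3 lay at 42.4, 10.2 and 45.3 against 5.76, 30.2 and 18.5, so that number 825 was the lowest of the Sox6+ and the highest of the Sox6- libraries. For Pcdha2 the values were 11.8, 34.2 and 12.0 against 14.4, 42.3 and 12.1, with number 825 highest in both groups. The log2 differences of these 3 were 0.26, 0.82 and -0.19, with limma adjusted p of 0.9, 0.775 and 0.954.

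The extremes of the tested alpha members were Pcdha6 and Pcdha12, and both rested on libraries at 0. Pcdha6 lay at 10.9, 38.7 and 8.32 in Sox6+ and at 2.88, 20.1 and 0 in Sox6- libraries (log2 difference 1.91, interval -1.35 to 5.18). Pcdha12 lay at 11.8, 0 and 0 against 0, 31.2 and 22.3 (log2 difference -1.96, interval -6.40 to 2.49). The groups of both genes overlapped. Pcdha1 and Pcdha7 were tested as well, with differences of 0.02 and -0.25. Pcdha5, Pcdha8, Pcdha10 and Pcdha11 were detected but fell below the mean of 10. Pcdha4 had 1 read in all, and the row Pcdha4-g had 0 in all 6 libraries. In GENCODE M21 only 93 bases of Pcdha4 are outside the exons of other genes; whether the overlap set its count was not tested.

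Beta members had a median of 8.83 normalized reads per kilobase, against 5.17 for the alpha subfamily, 4.44 for gamma A and 1.25 for gamma B. These levels were not corrected for stretches of unique exon alike between genes. The median share of 50-base words also found in another gene was 14.8% in the alpha cluster, 3.48% in beta and 0.810% in gamma. It ran from 0 to 39.5% among gamma A and from 2.67 to 17.9% among gamma B members. The part of such sharing in the order of the subfamilies was not tested. Among beta members Pcdhb12, Pcdhb9 and Pcdhb17 led at 44.4, 40.3 and 31.9 normalized reads per kilobase. Pcdhb12 lay at 78.9, 21.6 and 183 in Sox6+ libraries 103, 825 and 1211 and at 213, 149 and 162 in Sox6- libraries. Only Sox6+ library 1211 reached the Sox6- range, and the log2 difference was -1.33 (interval -2.86 to 0.21, limma adjusted p = 0.493). Pcdhb9 lay at 129, 54.7 and 179 against 178, 90.6 and 107 (log2 difference -0.15). Pcdhb17 lay at 189, 29.6 and 148 against 238, 106 and 181 (log2 difference -0.81). All 3 were lowest in number 825 of both groups, and without Sox6+ library 825 the differences of Pcdhb12, Pcdhb9 and Pcdhb17 were -0.52, 0.34 and 0.01.

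Pcdhb16 had the smallest p of all members. Its values were 87.8, 83.1 and 105 in Sox6+ libraries 103, 825 and 1211 and 10.6, 34.2 and 54.7 in Sox6- libraries, so all 3 Sox6+ values were above all 3 Sox6- values. The means were 92.1 ± 11.7 and 33.2 ± 22.1 (SD, n = 3 each). The log2 difference, 1.71 (SE 0.634), had an interval from 0.28 to 3.14 (limma p = 0.0237, adjusted p = 0.359; exact permutation p = 0.1). It was 1.06 without Sox6- library 103 and 2.20 without Sox6- library 1211. Pcdhb20 also showed separate groups, at 153, 100.2 and 125 against 91.1, 92.6 and 53.8, with a smaller log2 difference of 0.68 (limma adjusted p = 0.536). Pcdhb5 had the most positive beta difference, 1.85, at 41.4, 54.7 and 21.3 against 22.1, 3.02 and 11.1, with groups that overlapped. Pcdhb8 had the most negative, -2.57, at 51.3, 0 and 11.1 against 35.5, 76.5 and 45.4, where the value of 0 was in Sox6+ library 825 and the difference without that library was -1.02. Their limma adjusted p were 0.476 and 0.493.

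The remaining beta members spanned differences from -2.21 (Pcdhb11) to 1.14 (Pcdhb21). Pcdhb7 lay at 74.0, 68.3 and 89.6 in Sox6+ and at 184, 54.4 and 67.7 in Sox6- libraries, with overlap. Pcdhb3, Pcdhb4, Pcdhb11, Pcdhb15 and Pcdhb19 had no read in Sox6+ library 825 and between 15.8 and 99.6 normalized reads in the other 2 Sox6+ libraries. Pcdhb1, Pcdhb2, Pcdhb6 and Pcdhb13 were below the mean of 10. Pcdhb1, which lies first in the array, had 8 reads, all in Sox6+ library 1211.

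Gamma subfamily A was led by Pcdhga7, which held 25.5 to 78.1% of its reads in each library. Pcdhga7 lay at 90.8, 228 and 93.3 in Sox6+ libraries 103, 825 and 1211 and at 79.6, 75.5 and 82.5 in Sox6- libraries, so all Sox6+ values were higher. The Sox6- libraries were close together, with a mean of 79.2 ± 3.52 against 137 ± 78.4 in Sox6+ libraries. The log2 difference was 0.65 (interval -0.33 to 1.63, limma adjusted p = 0.607). Without Sox6+ library 825 it was 0.21. Per kilobase it lay at 34.9, against 8.29 for Pcdhga12 and 7.61 for Pcdhga8, next in order within the subfamily. Pcdhga12 lay at 32.6, 42.1 and 1.85 against 45.1, 19.1 and 6.49 and Pcdhga8 at 20.7, 0 and 24.03 against 7.67, 35.2 and 31.5, with limma adjusted p of 0.957 and 0.735. Both ranges overlapped between the groups. The difference of Pcdhga8, -1.41, was 0.10 without Sox6+ library 825, and that of Pcdhga12, -0.25, was 0.09 with edgeR.

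Pcdhga5 and Pcdhga4 had the most negative differences of all members. Pcdhga5 lay at 7.89, 0 and 0 in Sox6+ libraries 103, 825 and 1211 and at 44.1, 13.1 and 20.4 in Sox6- libraries, with no overlap. These values rest on 8 reads against 81. The log2 difference was -3.53, with an interval from -6.74 to -0.31 (limma p = 0.0346, adjusted p = 0.407, exact permutation p = 0.1). Pcdhga4 lay at 9.87, 0 and 0 against 9.59, 39.3 and 23.2, or 10 reads against 74 (log2 difference -3.30, limma adjusted p = 0.442). Its lowest Sox6- value was below its highest Sox6+ value. Of the 50-base words in the unique exon of Pcdhga4, 39.5% also occur in another member, the highest share of any member. For Pcdhga5 the share was 0.601%.

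Gamma subfamily B was close to the limit of detection. Its 7 members had 66 reads in Sox6+ libraries together and 127 in Sox6- libraries. Pcdhgb7 was the single member tested, at 8.88, 2.28 and 8.32 in Sox6+ and 12.5, 25.2 and 9.27 in Sox6- libraries. The groups did not overlap, with means of 6.49 ± 3.66 and 15.6 ± 8.41, and the log2 difference was -1.20 (limma adjusted p = 0.715). Pcdhgb6 had 6 reads against 25 and Pcdhgb2 4 against 18. Pcdhgb5 had 17 reads, all in Sox6- library 103, and Pcdhgb8, which GENCODE annotates as a polymorphic pseudogene, had 19 reads, all in Sox6+ library 103.

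**Figure D3:**
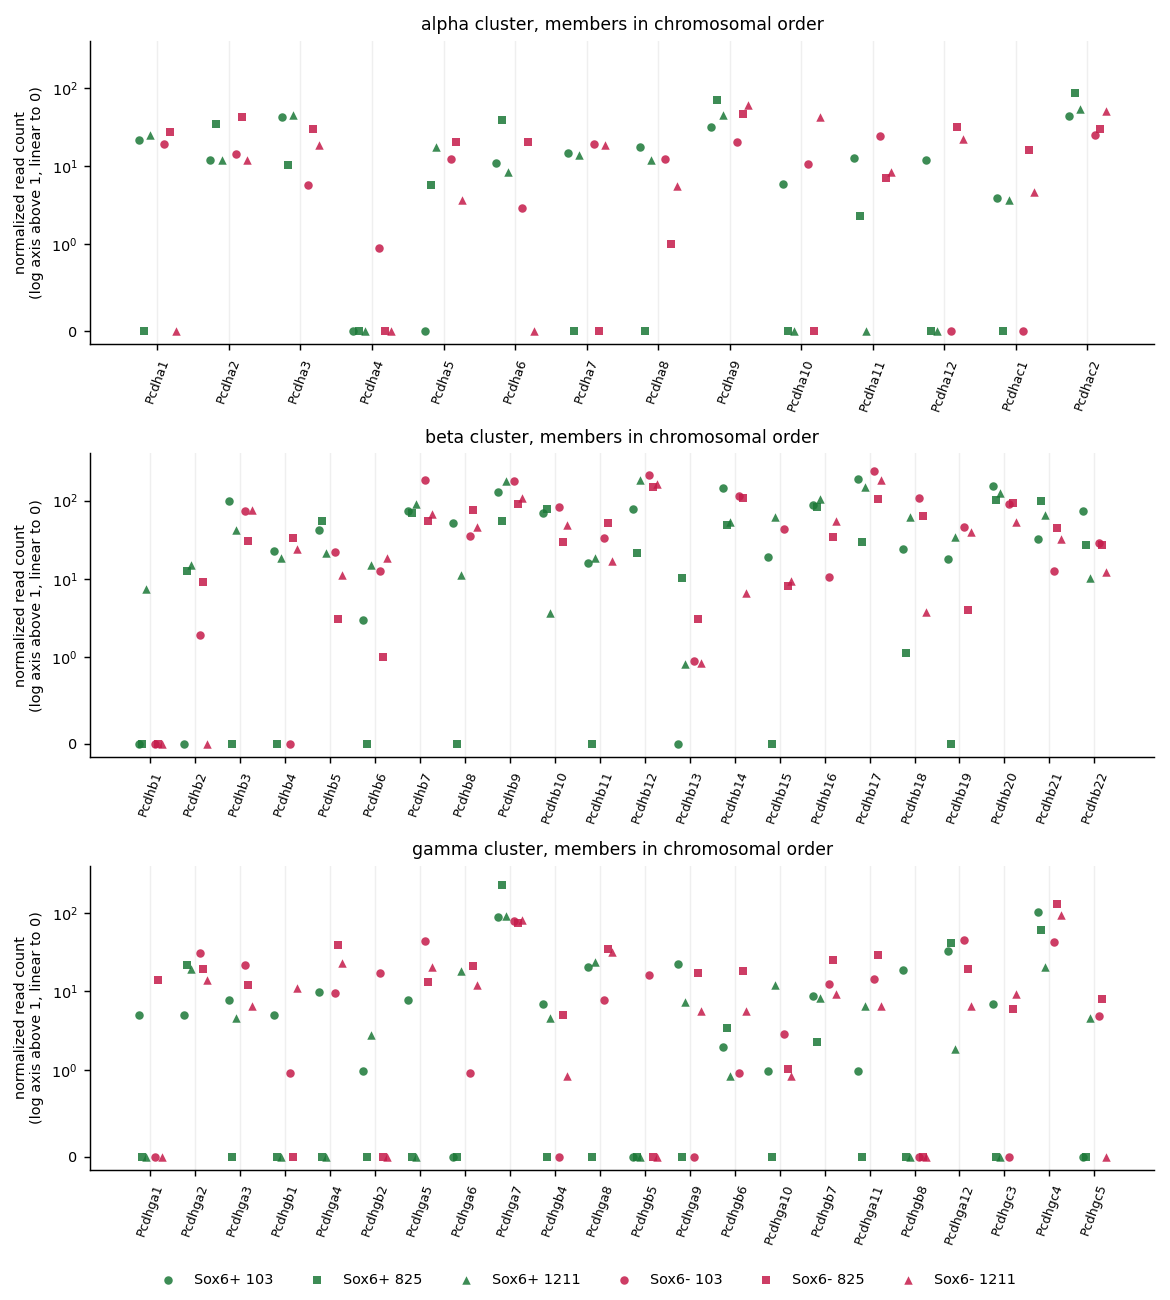
Normalized read count of each member (vertical axis, logarithmic above 1 and linear down to 0) in the 6 libraries, with 58 members in their order along the chromosome (Pcdha4-g, at 0 throughout, is left out); colour gives the group and shape the library number. Sox6+ library 825 (green squares) lies at 0 for many members, and Pcdhga7, Pcdhb9 and Pcdhb20 are detected in all 6 libraries.

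Sox6+ libraries 103, 825 and 1211 held reads of 50, 27 and 47 members, and the Sox6- libraries of 49, 50 and 48. With every library cut to the 1136 protocadherin reads of the poorest, the expected numbers were 48.4, 27 and 45.9 in Sox6+ and 46.2, 48.8 and 47.0 in Sox6- libraries, so library 825 was also lowest at an equal number of reads. A value of 0 allows up to 3 reads, which is 3.42 normalized reads in Sox6+ library 825 and 2.77 to 3.02 in the others (counting error only).

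In Sox6+ library 825 few members made up the alpha and gamma sums. In alpha its 247 normalized reads came from 7 members, where the other libraries had 10 to 12. In gamma its 359 came from 6 members, where the others had 15 to 19. Pcdhga7 made up 63.5% of the gamma reads of this library (exact binomial 95% interval 57.9 to 68.8%), against 25.5% and 40.7% in Sox6+ libraries 103 and 1211 and 22.6%, 15.4% and 24.3% in Sox6- libraries 103, 825 and 1211. Such intervals cover counting error only, since reads are not independent molecules. Pcdhac2 made up 35.0% of its alpha reads (28.7 to 41.8%) and 14.9 to 22.7% in Sox6+ libraries 103 and 1211 and Sox6- library 103, where it also led. The effective number of members, the exponential of the Shannon entropy of their shares, was 4.71 in alpha and 2.97 in gamma for this library and 7.78 to 10.0 and 7.90 to 11.6 for the other 5. In beta 14 members made up 688 normalized reads, with an effective number of 11.0 against 12.8 to 14.5.

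**Figure D4:**
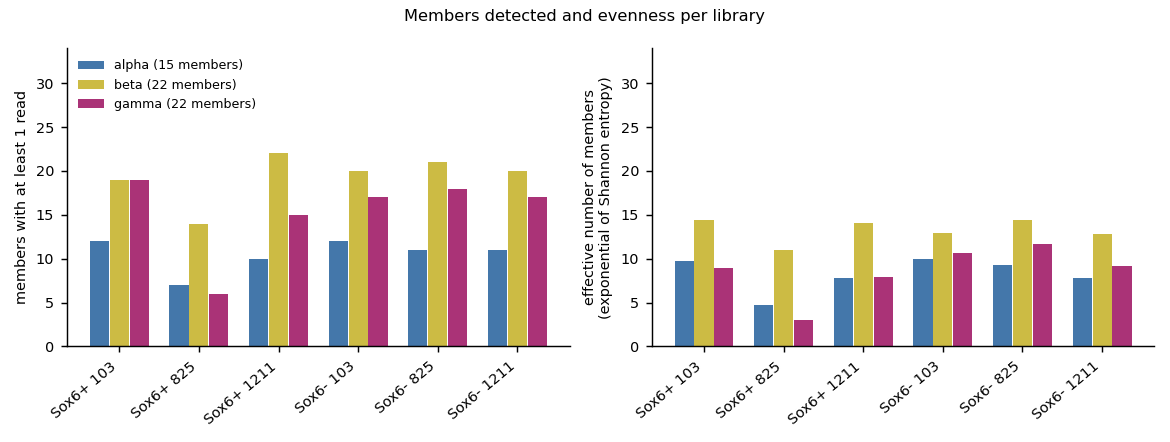
Number of members with at least 1 read (left) and effective number of members (right) in each library, for the alpha, beta and gamma clusters. Sox6+ library 825 has 7, 14 and 6 members with a read, fewer than any other library in each cluster.

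Zeros in library 825 were also more frequent among other genes. Of the 34 tested members 12 (35.3%) were at 0 in it. The share was 6.79% of all tested genes and 14.9% of the 5232 tested genes within the members' range of means. Those genes were not matched to the members by level within the range. In the other 5 libraries 0 to 3 of the 34 members were at 0 (0 to 8.82%), against 4.49 to 6.90% of the genes in that range. Sox6+ library 825 also had the highest macrophage marker sum, 28315 (Lyz2 26494), and the fewest reads in genes, 10397924. Genes with a read numbered 13429 in it, against 14416 to 15043 in the others. These traits occur together in 1 library and cannot be told apart. Their part in the zeros was not tested.

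The median coefficient of variation of the tested members was 81.6% in Sox6+ and 61.1% in Sox6- libraries. For tested genes in the same range of means, not matched by level within it, it was 53.9% and 40.5%. The sum over all 59 members varied by 19.3% and 13.6%. The genewise dispersion, the variance beyond counting error that edgeR estimates, was above the trend at the gene's level for 19 of 34 members (55.9%), 23.9% of all tested genes and 32.2% of those in the members' range. Without Sox6+ library 825 it was above for 18 members (52.9%) and for 31.2% of genes in that range. These shares are descriptions without a test. The trend falls as the level rises, and over all 6 libraries its median was 0.849 in members and 0.541 in genes of that range. By this measure the members lay lower within the range.

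Members differed widely in this spread. Pcdha12 had the highest dispersion relative to the trend, 6.34 times the trend, followed by Pcdhb3 at 3.60, Pcdhb4 at 3.37 and Pcdha1 at 3.31. These 4 each had 1 to 3 libraries at 0. Pcdhac2, Pcdhgb7 and Pcdhb20 had the lowest, at 0.181, 0.182 and 0.183 times the trend. The C-type member Pcdhgc4 lay at 0.992. Of the 11 tested protocadherins outside the clusters 4 were above the trend, or 7 without Sox6+ library 825.

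**Figure D5:**
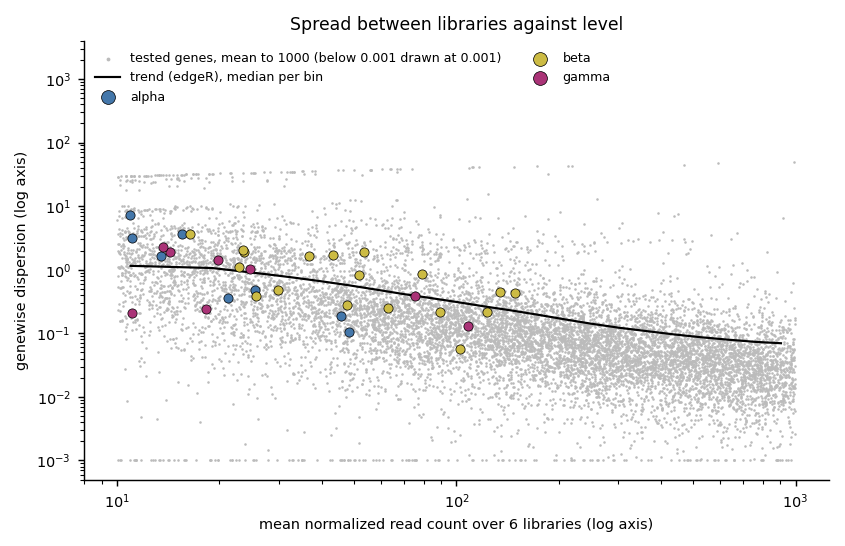
Genewise dispersion (vertical, log axis) against mean normalized read count (horizontal, log axis) for tested genes in grey, with the edgeR trend as a line and the 34 tested members coloured by cluster. Of the members, 19 lie above the trend.

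The order of the members' levels was only partly shared between libraries. Over the 34 tested members Spearman's rho between 2 libraries ran from 0.262 to 0.657 over the 15 pairs. Its median was 0.493 for pairs within a group, 0.501 for pairs of the same number and 0.503 for the other pairs. For genes within the members' range of means the corresponding rho ran from 0.28 to 0.708. The medians there were 0.676, 0.597 and 0.585, in the same order. Level per kilobase had a rho with order along the array of -0.302 in alpha (13 members), 0.249 in beta (22) and 0.0774 in gamma (22). All points of a rho share the same 6 libraries, and these values are descriptions.

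Of 22 genes that act in protocadherin promoter choice 19 were tested. With limma 0 passed (0.304% of all tested genes did) and 0 had an unadjusted p under 0.05 (11.4%). Of the differences 7 were above 0, where 48.1% of all genes were, and 12 below, with a median of -0.10. Ctcf, the insulator protein that binds these promoters, had a log2 difference of -0.09 (interval -0.75 to 0.56), and the cohesin subunit Rad21 one of 0.04 (-0.58 to 0.67). The smallest unadjusted p were those of Stag1, a cohesin subunit, and Atf7ip, a partner of the histone methyltransferase Setdb1, with differences of -0.55 and -0.51. Dnmt3b, the DNA methyltransferase that marks these promoters in development, had a mean of 1.89 in Sox6+ and 0.32 in Sox6- libraries and was not tested. Rest, a repressor that binds protocadherin promoters, was also below the mean of 10, with 0 in all 3 Sox6+ libraries and 22.1, 16.1 and 9.27 in Sox6- libraries 103, 825 and 1211; it was singled out after its values were seen.

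Of 21 signalling partners of clustered protocadherins all were tested and 0 passed with limma, while 3 had an unadjusted p under 0.05, beside 11.4% of all tested genes. Prkca, the kinase PKC alpha, lay at 1256, 1409 and 1333 in Sox6+ libraries 103, 825 and 1211 and at 593, 791 and 405 in Sox6- libraries (log2 difference 1.21, limma adjusted p = 0.085). Rhoa, a small GTPase of the cytoskeleton, and Ret, the GDNF receptor kinase that binds some protocadherins, had differences of 0.51 and 1.37, with adjusted p of 0.231 and 0.273. Ret was high in Sox6- library 825, at 3192 against 1219 and 1221. The focal adhesion kinase genes Ptk2 and Ptk2b, which alpha and gamma proteins restrain, had differences of -0.13 and -0.89 and were not among the 3. Over the list 9 differences were above 0 and 12 below, with a median of -0.10.

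Of the 12 protocadherins outside the clusters, 11 were tested and 0 passed with limma; only Pcdh7 had an unadjusted p under 0.05, beside 11.4% of all tested genes. Pcdh7 lay at 515, 287 and 305 in Sox6+ libraries 103, 825 and 1211 and at 465, 581 and 700.2 in Sox6- libraries, with overlap (log2 difference -0.69, limma adjusted p = 0.403). Pcdh11x lay at 50.3, 0 and 118 against 418, 190.3 and 394, with no overlap (log2 difference -4.11, adjusted p = 0.452), and Pcdh19 had a difference of -0.46. The median over the 11 was -0.01. Neither they nor the clustered members had a call.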

How the data were processed

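Per the labels' protocols, neurons were dissociated with papain and sorted, and stranded TruSeq mRNA libraries were made from total RNA. Among tools, DESeq2, HTSeq, STAR, cutadapt and FastQC are listed in the submitters' processing notes, with GRCm38 (mm10) as build. Their versions, the annotation, the strand setting and how shared exons were handled were not given in the sources used here. Reads in constant exons, or in stretches alike between members, may therefore be lost or split. The authors deposited a normalized signal (gene counts after size-factor division), its mean, a log2 fold change with its standard error, a test score and p-values. All positive values of each library were whole multiples of 1 step within 0.01 (100.0%), from which reads were recovered.

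Genes with a mean of at least 10 were tested (13175) with limma (trend, robust) on log2(value + 1), Benjamini-Hochberg adjusted at 0.05. The fit was run on counts simulated with every gene at the dispersion trend, so it was not tested for members above that trend. The 59 members were matched to GENCODE M21 by symbol and RefSeq start (58 matched); unique exon means exonic bases in no other gene. Members named are the C-type, the highest 3 per kilobase and the extreme differences in each subfamily, and those of smallest p, with the genes of smallest p in each list (1 such gene is not reported here); others were named after their values were seen. Members and lists were chosen with earlier results of these data known. Fits ran in R 4.3.3 with DESeq2 1.42.0, edgeR 4.0.16 and limma 3.58.1; summaries used pandas 2.3.3 and scipy 1.17.1.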

Additional observations from a re-analysis of the deposited data

How the results depend on the processing

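No clustered protocadherin passed the threshold under any of the 15 alternatives run. The smallest adjusted p was 0.186 with the library number as a replicate block (Pcdhb16), and 0.188 (Pcdhb8) to 0.608 (Pcdhb16) when 1 library was left out. Over all genes 40 passed, but 267 with the replicate block, 69 with a pseudocount of 8, 21 with no filter, 6 with edgeR, 120 with edgeR and the block, 387 with DESeq2, and 1 (without Sox6- library 1211) to 161 (without Sox6+ library 103) with 1 library left out; it was 9, 8 and 18 without Sox6+ 825, Sox6+ 1211 and Sox6- 825. The numbers were not taken as pairs in the main fit, since the labels do not say what they mark. Deviations of same-numbered libraries correlated at 0.268, 0.172 and 0.0789 for 103, 825 and 1211, and those of differently numbered libraries at -0.236 to 0.0243. Each library correlated best with its own number. The alpha median ran from 0.16 to 0.79 with 1 library left out, the highest without Sox6+ library 825, and could not be computed at a mean of at least 50, which no alpha member reached; with no filter it was -0.22. The beta median ran from -1.06 to 0.32 and the gamma median from -1.32 to -0.72. The gamma sum ratio was -0.83 without Pcdhga7. Of 272 values for 19 single members under an alternative, 259 kept their direction; Pcdhga12 was 0.088 with edgeR and 0.11 with DESeq2. With 1 library left out, Pcdha2 ran from -0.67 to 0.35, Pcdha9 from -0.20 to 0.58, Pcdhb9 from -0.51 to 0.34, Pcdhb17 from -1.30 to 0.014, Pcdhga8 from -2.22 to 0.10 and Pcdhga12 from -0.97 to 0.995. The cause of these changes was not tested. Few reads per member limit every comparison.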
